A study of Homo sapiens with 54 samples.

Results

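Insulin given alone was compared with no added factor in HT-29 cells, an established human colon adenocarcinoma line of epithelial origin. The arrays were taken by their labels, those with 500 ng/ml insulin and neither TNF nor EGF, and those with none of the 3 factors, which gave 12 of the 54 arrays of the series. The 6 insulin arrays and the 6 untreated arrays were each collected at 4, 8 and 16 h, with 2 biological replicates a time. All cells of both groups had been plated at 50000 cells/cm2 and primed for 24 h with interferon-gamma at 200 U/ml, so that the untreated cells are interferon-primed cells and not resting ones. The whole series covers 9 combinations of TNF, EGF and insulin at these 3 times, each in 2 replicates, and holds 27 groups. The cells are 1 tumour line in bulk culture, and a lower signal can come from fewer cells of a kind or from less RNA per cell, which cannot be told apart here.

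Insulin binds its receptor tyrosine kinase and, at high doses, the related IGF1 receptor. The receptor substrates IRS1 and IRS2 pass the signal to PI3 kinase and AKT, and through RAS to the MAP kinase ERK. AKT holds the FOXO transcription factors out of the nucleus, which lowers the transcripts FOXO activates, and feeds mTORC1, which promotes ribosome production and lipid synthesis and restrains autophagy. ERK acts on early genes such as those of the AP-1 and EGR families.

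What was measured is the signal of each array probe set, an intensity that the authors scaled per array. Differences are in log2(signal + 12.5), always insulin minus untreated, with the standard error of a limma fit over all 54 arrays. This added constant shrinks the differences of dim probe sets. Of 22215 probe sets that are not controls, 13422 had a mean signal of at least 138.9 in some group and were tested. A probe set was called when its limma adjusted p (Benjamini-Hochberg over these 13422) was under 0.05. Where a gene has several probe sets, the brightest stands for it, which leaves 8105 genes. With 2 arrays per group and time, the number of arrays limits the precision. In simulated data of this layout, the test over the 3 times recovered 22.4% of probe sets changed by 0.5 on the log2 scale at every time, 70.1% at 1 and 97% at 2. The simulated noise was independent between arrays, whereas deviations of the real arrays were correlated, so these shares are only a guide.

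The 12 arrays had median signals between 133 and 156, and replicates correlated at 0.929 to 0.974 across tested probe sets, which are not independent. The replicate 2 arrays at 8 h stood apart in the log2 ratio of the 3′ to the 5′ ACTB control probe sets, a sign of RNA integrity, with 0.98 for insulin and 0.39 for untreated, against -0.20 to 0.31 in the other 10 arrays. Of 9 tested markers of colon epithelium none was called, and their summed signal ran between 68486 and 99523 with insulin and between 57623 and 90799 in untreated cells. Marker lists for lymphocytes (4 tested), macrophages (3), fibroblasts (4), endothelium (1) and hepatocytes (3) had no called member either.

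Insulin changed few transcripts. Over the 3 times, 31 probe sets (0.231% of those tested) were called, 11 higher and 20 lower with insulin. Only 3 of the 31 had a mean difference of at least 2-fold. A second test, of the mean of the 3 times, called 44 (0.328%), 15 higher and 29 lower, and 21 probe sets were called by both. Counted as genes by their brightest probe set, 9 were higher (0.111% of 8105) and 13 lower (0.16%) over the 3 times, 0.271% together, and 12 were higher (0.148%) and 23 lower (0.284%) in the mean. At an unadjusted p under 0.05, limma gave 771 probe sets over the 3 times. That is 5.74% of those tested, near the share that the 0.05 level passes with no difference at all. In the mean of the 3 times it gave 1071 (7.98%), above that share.

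The counts depend on which arrays were fitted. Replicate numbers were taken to pair the arrays within a time. The deviations of the same-numbered insulin and untreated arrays correlated at 0.18 at 4 h, 0.55 at 8 h and 0.12 at 16 h. Of the 15 pairs among the 6 groups, most of them across times, 12 were over 0.1, so these values do not settle the pairing. Counts of same-numbered pairs below, such as 6 of 6, rest on this pairing. They are given without a share over all genes and are a description. With the replicate number as a block within each time, 160 probe sets were called over the 3 times, 67 higher and 93 lower (1.19%). All 31 were among them. At an unadjusted p under 0.05 limma gave 1593 with this block. Fitted on the 12 arrays of the comparison alone, with 1 residual degree of freedom per group and time, limma called 0 probe sets (456 at an unadjusted p under 0.05), and the adjusted p of the genes described next rose to 0.21 for HBP1, YPEL5 and ASS1, 0.23 for FOSL1 and 0.32 for DEPP1. The calls below therefore rest on the spread shared by all 27 groups. With each array centred on its median, 7 probe sets were called, 1 higher and 6 lower. With 1 array left out the count was 11 without the insulin replicate 2 at 4 h, 14 without its replicate 1, 18 without the untreated replicate 2 at 4 h, 19 without the untreated replicate 2 at 8 h and 54 without the insulin replicate 1 at 8 h.

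**Figure D1:**
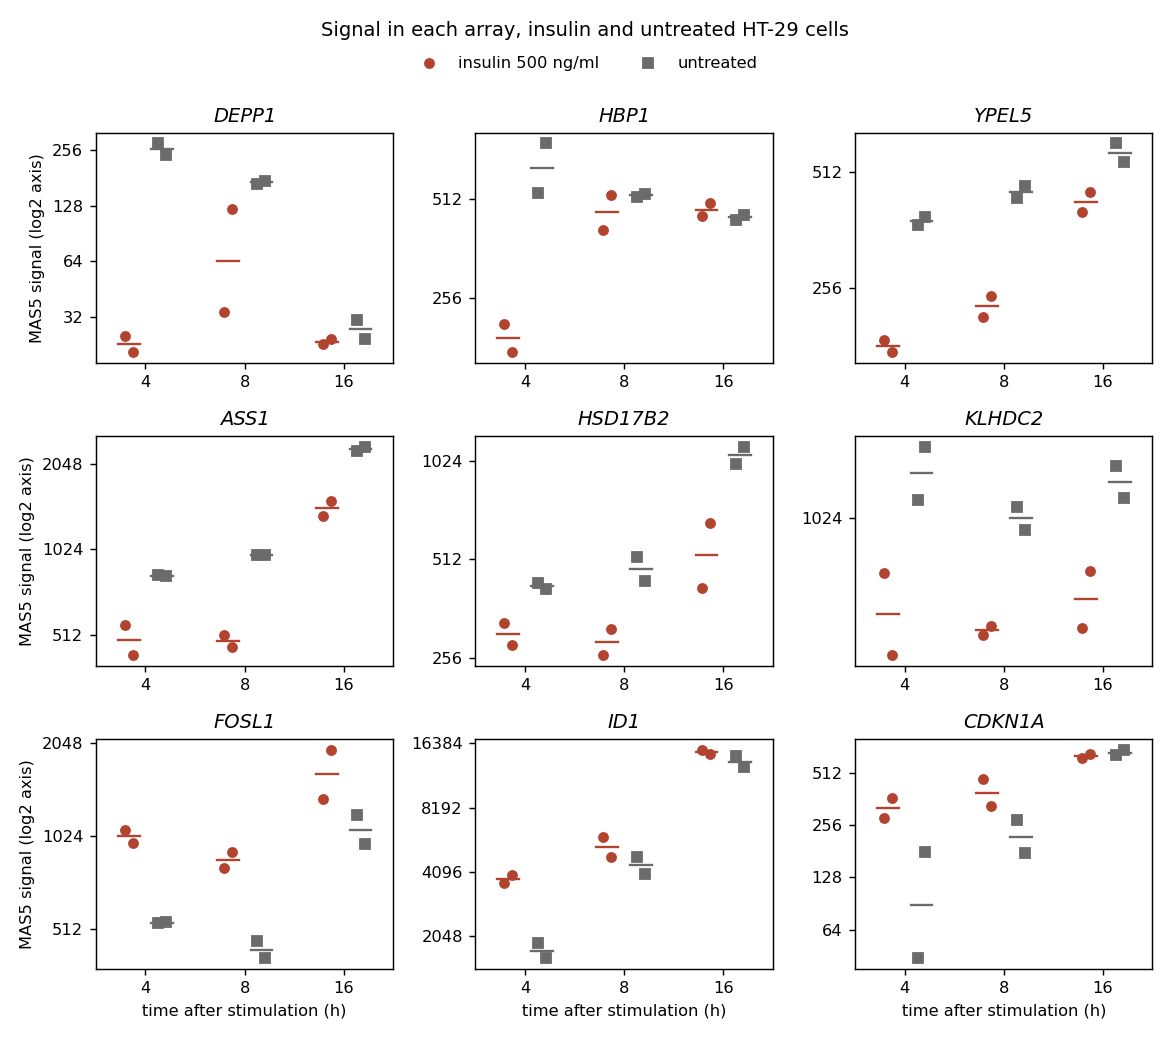
MAS5 signal (log2 axis) of 9 genes in each array at 4, 8 and 16 h, insulin as red circles on the left of each pair and untreated as grey squares on the right; each point is 1 array and each line their geometric mean. DEPP1 and HBP1 sat far lower with insulin at 4 h (DEPP1 25 and 20.5 with insulin, 279 and 243 untreated) and close together at 16 h, while YPEL5, ASS1, HSD17B2 and KLHDC2 sat lower and FOSL1 higher with insulin at each time.

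The largest fall in the mean of the 3 times was that of DEPP1, a regulator of autophagy known as a FOXO target. Its signal was 25 and 20.5 at 4 h, 33.7 and 123 at 8 h and 22.6 and 24.1 at 16 h with insulin, against 279 and 243 at 4 h, 169 and 174.5 at 8 h and 30.8 and 24.2 at 16 h in untreated cells. Every insulin array lay below its same-numbered untreated array, but the 16 h pairs differed little and both groups were dim by then. The difference was -2.96 (4 h), -1.22 (8 h) and -0.15 (16 h), with a mean of -1.44 ± 0.18 and an adjusted p of 2.68e-06 over the 3 times. Since the insulin arrays at 4 h lie near the added constant, the fall there is understated. A second, dimmer probe set of the gene gave -1.07 at 4 h and was not called.

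HBP1, an HMG-box repressor of cell cycle genes and also a FOXO target, was called lower at 4 h and not at 8 or 16 h. Its signal was 214.5 and 176 at 4 h, 412 and 528 at 8 h and 455 and 498 at 16 h with insulin, against 535 and 755 at 4 h, 519 and 532 at 8 h and 443 and 458 at 16 h in untreated cells. At 4 h the groups stand clear of each other, at 8 h both insulin arrays lie below their same-numbered untreated arrays but the groups overlap, and at 16 h they overlap too. The difference was -1.65 (4 h), -0.17 (8 h) and 0.08 (16 h), with an adjusted p of 1.14e-05 over the 3 times.

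YPEL5, a Yippee family protein of the CTLH ubiquitin ligase complex, was lower at every time. Its signal was 188.5 and 175 at 4 h, 216 and 244.5 at 8 h and 401.5 and 453 at 16 h with insulin, against 372 and 390 at 4 h, 437 and 469.6 at 8 h and 605 and 543 at 16 h in untreated cells. At each time both insulin arrays lay below both untreated arrays. The mean difference was -0.79 ± 0.10 (adjusted p 9.53e-05).

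ASS1, argininosuccinate synthase of arginine synthesis, had signals of 553 and 434 at 4 h, 511 and 464 at 8 h and 1343 and 1517 at 16 h with insulin, against 832 and 823 at 4 h, 975 and 979.5 at 8 h and 2272 and 2359 at 16 h in untreated cells. Here too both insulin arrays were below both untreated arrays at each time, although the gene's own level was higher at 16 h than at 4 h in both groups. The mean difference was -0.81 ± 0.11 (adjusted p 0.000449).

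FOSL1, the AP-1 subunit FRA1, rose. Its signal was 1073 and 971 at 4 h, 805 and 909 at 8 h and 1352 and 1948 at 16 h with insulin, against 535 and 538 at 4 h, 467 and 410.3 at 8 h and 1193 and 965 at 16 h in untreated cells. Both insulin arrays lay above both untreated arrays at each time, by 0.91 (4 h), 0.95 (8 h) and 0.59 (16 h) on the log2 scale. The mean was 0.82 ± 0.11 (adjusted p 0.000449). DEPP1, HBP1, YPEL5, ASS1 and FOSL1 stayed called over the 3 times when any 1 of the 12 arrays was left out, and the largest adjusted p of DEPP1 was then 0.00042.

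Other genes called lower over the 3 times were NBR1, WIPI2 and KLHDC2. NBR1, a receptor that carries ubiquitinated cargo into autophagosomes, had signals of 399.6 and 520.3 at 4 h, 515 and 426.5 at 8 h and 1069.8 and 1061 at 16 h with insulin, against 743 and 1024 at 4 h, 847 and 704 at 8 h and 1358 and 1326 at 16 h in untreated cells. It was lower with insulin in each pair, with a mean difference of -0.65 ± 0.11 (adjusted p 0.0123). WIPI2, which binds the lipid of the forming autophagosome, differed by -0.43 ± 0.08 (adjusted p 0.0164), also lower in 6 of 6 pairs. KLHDC2, a substrate receptor of a cullin ubiquitin ligase, differed by -0.55 ± 0.09 (adjusted p 0.0108) with nearly the same size at each time, -0.63 (4 h), -0.50 (8 h) and -0.52 (16 h). NBR1, WIPI2 and KLHDC2 thus moved less than DEPP1 but in every pair. Further probe sets, none of them called, showed means of -0.46 for NBR1 and -0.16 and -0.02 for WIPI2. The adjusted p of NBR1 rose to 0.107 without the insulin replicate 1 at 4 h, that of KLHDC2 to 0.073 without the insulin replicate 2 at 4 h and that of WIPI2 to 0.112 without the insulin replicate 2 at 8 h.

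HSD17B2, which oxidises estradiol and testosterone to weaker forms, had signals of 328 and 279 at 4 h, 261 and 313 at 8 h and 419.6 and 660.3 at 16 h with insulin, against 433 and 415 at 4 h, 521.5 and 439 at 8 h and 1004 and 1132 at 16 h in untreated cells. The difference grew with time, being -0.47 (4 h), -0.72 (8 h) and -1.0 (16 h), but its change was not called, and the adjusted p over the 3 times was 0.0108. SELENBP1, a methanethiol oxidase of differentiated colon cells, differed by -0.58 ± 0.10 (adjusted p 0.0204). CYP1B1, a cytochrome P450 induced through the aryl hydrocarbon receptor, differed by -0.46 ± 0.09 (adjusted p 0.0353). All 3 were lower in 6 of 6 pairs, and of the 12 fits that each left out 1 array, 3 kept the call of CYP1B1, 7 that of SELENBP1 and 10 that of HSD17B2.

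ELF3, an epithelial ETS factor, and ASNS, asparagine synthetase, were called lower at 4 h and not at 8 or 16 h. ELF3 had signals of 1219.8 and 911 at 4 h with insulin, against 2446 and 1832 in untreated cells, with differences of -1.0 (4 h), -0.27 (8 h) and 0.03 (16 h) and an adjusted p of 0.00816 over the 3 times. Its second probe set showed -0.08 at 4 h and was not called. ASNS had 2108.5 and 2034 at 4 h with insulin, against 3779 and 4804 in untreated cells, and 11694 and 11670.2 at 16 h, against 10495 and 12008, with differences of -1.04 (4 h), -0.12 (8 h) and 0.06 (16 h). In both genes the groups do not overlap at 4 h or at 8 h, where the insulin arrays are the lower ones, and the change from 4 to 16 h was not called (adjusted p 0.138 for ELF3 and 0.16 for ASNS). The groups of ASNS overlap at 16 h. The adjusted p of ASNS was 0.0212 over the 3 times and 0.359 without the untreated replicate 2 at 4 h, and that of ELF3 was 0.201 without the insulin replicate 2 at 4 h.

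Among the genes called higher, most moved at 4 h. ID1, an inhibitor of helix-loop-helix factors, had signals of 3635 and 3957 at 4 h, 5983 and 4778 at 8 h and 15312 and 14561 at 16 h with insulin, against 1893 and 1607 at 4 h, 4785 and 4014 at 8 h and 14249 and 12651 at 16 h in untreated cells. It was higher with insulin in each pair, by 1.11 (4 h), 0.29 (8 h) and 0.15 (16 h) (adjusted p 0.00798). Its level in both groups was much higher at 16 h than at 4 h, as the plot of signals per array shows. Without the insulin replicate 2 at 4 h its adjusted p was 0.108.

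IER3, an early response gene of growth factor and NF-kB signalling, was higher in 6 of 6 pairs by 0.45 ± 0.08 (adjusted p 0.0118). DDIT4, an inhibitor of mTORC1 also named REDD1, had 1630.2 and 1563 at 4 h with insulin, against 697 and 609 in untreated cells. Its difference was 1.28 (4 h), 0.25 (8 h) and 0.21 (16 h) (adjusted p 0.0331). PHLDA1, a pleckstrin homology protein induced by ERK, had 758.5 and 633 at 4 h with insulin, against 244 and 339, and differed by 1.23 (4 h), 0.03 (8 h) and 0.18 (16 h) (adjusted p 0.0268). Its 4 other probe sets differed at 4 h by 1.63, 0.94, 0.19 and -0.03, none called. Of the 12 fits that each left out 1 array, 10 kept the call of IER3, 9 that of PHLDA1 and 5 that of DDIT4, with adjusted p-values up to 0.117, 0.383 and 0.309, reached without the insulin replicate 2, the insulin replicate 1 and the untreated replicate 2 at 4 h.

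CDKN1A, the cyclin-dependent kinase inhibitor p21, had signals of 280.3 and 367 at 4 h, 469.9 and 328 at 8 h and 624 and 652 at 16 h with insulin, against 43.9 and 180.1 at 4 h, 275 and 176 at 8 h and 643 and 694 at 16 h in untreated cells. The groups do not overlap at 4 and 8 h, and 1 untreated 4 h array is far below its replicate. The difference was 1.68 (4 h), 0.80 (8 h) and -0.07 (16 h) (adjusted p 0.0212). Without that array the adjusted p was 0.246.

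CDC42EP2, an effector of the GTPase CDC42, shows the same dependence. It had 300.1 and 315 at 4 h with insulin, against 65.5 and 166 in untreated cells, with an adjusted p over the 3 times of 0.0089, or 0.318 without the untreated replicate 1 at 4 h, and its second probe set showed 0.13 at 4 h. WDR3, a protein of small ribosomal subunit processing, was higher in 6 of 6 pairs by 0.55 ± 0.11 (adjusted p 0.0249). SLC7A11, the cystine and glutamate exchanger, was higher at 8 h, by 0.95, and differed by -0.46 at 4 h (adjusted p 0.0296), with 0.80 and 0.09 at 8 h on its other probe sets, not called. The calls of WDR3 and SLC7A11 each held in 6 of the 12 fits that left out 1 array, and without the insulin replicate 2 at 8 h their adjusted p-values were 0.207 and 0.238.

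A further 8 genes were called only through a probe set dimmer than the one that stands for the gene, and are named after their values were seen. The chemokine receptor CXCR4 had signals on that probe set of 251 and 234 at 4 h, 216.5 and 255 at 8 h and 218 and 202 at 16 h with insulin, against 122.5 and 208 at 4 h, 329.6 and 399 at 8 h and 538 and 652 at 16 h in untreated cells, so that its difference turned from 0.56 at 4 h to -1.44 at 16 h (adjusted p 0.00155). Its brighter probe set showed 0.00 (4 h), -0.46 (8 h) and -0.42 (16 h) with an adjusted p of 1. The probe sets of CXCR4 disagree at 4 h and run the same way, with unequal size, at 8 and 16 h.

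The splicing factor SRSF5 was higher with insulin at 16 h. The called probe set had 1621 and 1425 at 16 h with insulin, against 716 and 764 in untreated cells, and the brighter one had 1505 and 1679.5, against 769.5 and 1087. In both, the untreated signal at 16 h lay below that at 4 h and the insulin signal fell less. The brighter set's difference at 16 h was 0.79, and its adjusted p over the 3 times was 0.0745. The other 6 were CCNG2, HLA-DQB1, NOX1 and ABCG1, lower, JAG1, higher, and DUSP6, which changed direction with time. The colon NADPH oxidase NOX1 differed by -0.67 ± 0.12 on the called probe set (adjusted p 0.0242), with -0.70 ± 0.22 on the brighter one, which was not called (adjusted p 0.708). ABCG1, a cholesterol exporter, differed by -0.36 (4 h), -1.81 (8 h) and -0.78 (16 h) (adjusted p 0.0297), and its call held in 5 of the 12 fits that left out 1 array. The brightest probe set of ABCG1 differed by -0.82 (4 h), -1.12 (8 h) and -0.04 (16 h) and was not called (adjusted p 0.907). The Notch ligand JAG1 was higher in 6 of 6 pairs by 0.87 ± 0.15 (adjusted p 0.0212), and its brighter set differed by 0.53 and was not called. DUSP6, a phosphatase of ERK, rested at 8 h on insulin arrays of 353 and 27.9 on the called probe set. The lower value is from the replicate 2 array with the high ACTB ratio. Its brightest probe set had 1033 and 1270 at 8 h with insulin, against 1693 and 2160 in untreated cells. That set differed by 1.07 (4 h), -0.73 (8 h) and -0.14 (16 h), and the remaining set by 0.79, -0.40 and -0.24. Both changed direction in the same way, and neither was called (adjusted p 0.317 and 0.326 over the 3 times). With the replicate block the brightest was called (adjusted p 0.00539). The last of the 31 has no single gene symbol, differed by -2.86 at 16 h (adjusted p 0.0414 over the 3 times) and stayed called in 2 of those 12 fits.

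How the difference changed from 4 to 16 h was the next question. At 4 h, 21 probe sets were called (0.156%), 12 higher and 9 lower, at 8 h 6 (0.0447%), 2 higher and 4 lower, and at 16 h 3 (0.0224%), 1 higher and 2 lower. None of the 3 at 16 h was among those called at 4 or 8 h, and 2 of the 6 at 8 h (FOSL1 and YPEL5) were also called at 4 h. With the replicate block the counts were 79 (0.589%), 42 (0.313%) and 14 (0.104%). Of the 21 called at 4 h, 17 had the same sign at 8 h and 15 at 16 h. Their median absolute difference was 1.22 (4 h), 0.21 (8 h) and 0.18 (16 h), against 0.17, 0.17 and 0.18 over all genes. These probe sets were picked for their size at 4 h, so the smaller values at 8 and 16 h are a description.

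**Figure D2:**
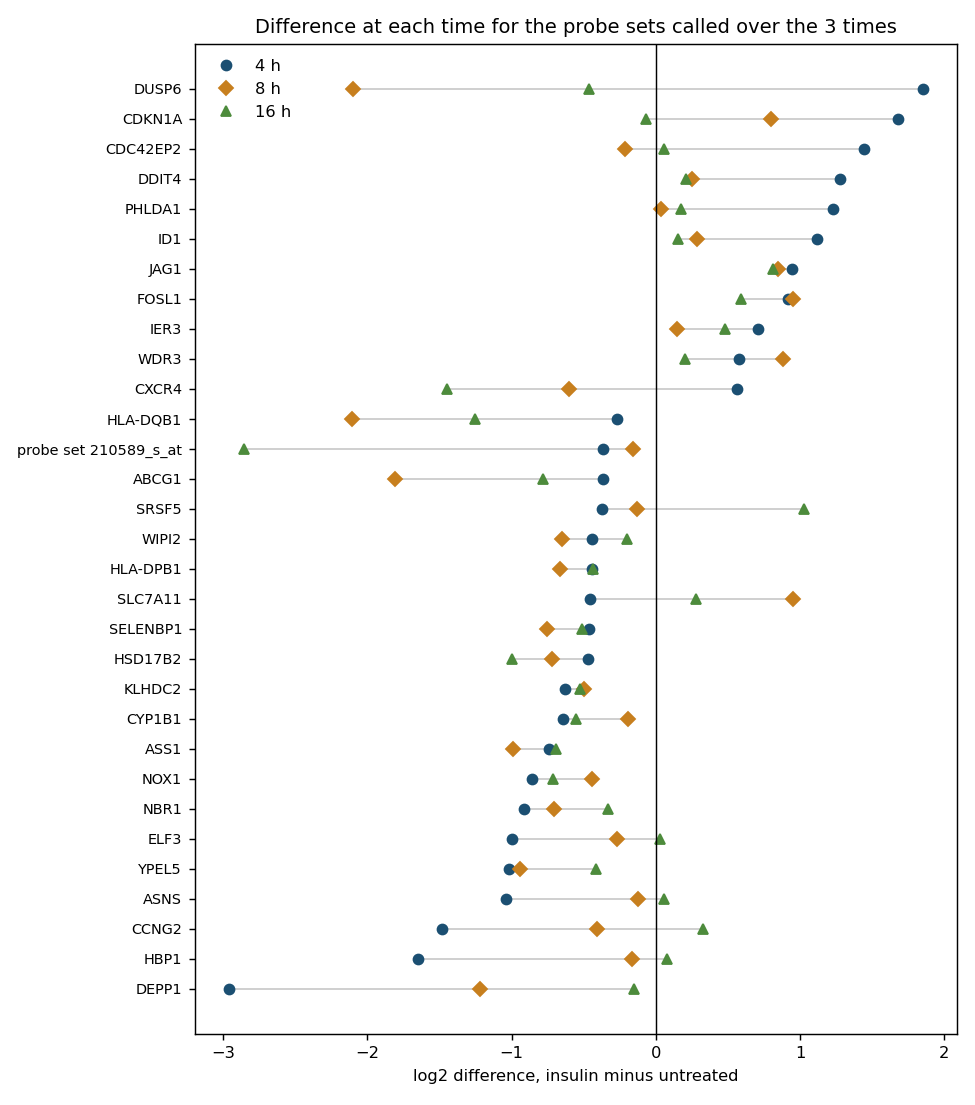
Log2 difference, insulin minus untreated, at 4 h (circles), 8 h (diamonds) and 16 h (triangles) for each of the 31 probe sets called over the 3 times, ordered by the 4 h value. DEPP1 (-2.96, -1.22 and -0.15) and HBP1 (-1.65, -0.17 and 0.08) lie far below 0 at 4 h and near it at 16 h, while ASS1, KLHDC2 and JAG1 hold nearly the same place at each time.

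The test of the change itself, the difference at 16 h minus that at 4 h, called 4 probe sets (0.0298%), of which 2 stand for their gene. At an unadjusted p under 0.05 limma gave 564 (4.2%). HBP1 changed by 1.72 ± 0.25 (adjusted p 0.000855) and DEPP1 by 2.80 ± 0.44 (adjusted p 0.00224), both from a fall at 4 h towards no difference. Both calls held without any 1 of the 8 arrays at 4 and 16 h. For DEPP1, the untreated signal itself was lower at 16 h, 30.8 and 24.2, than at 4 h, so the change there is mostly in the untreated cells. For HBP1 it is mostly in the insulin arrays, with 455 and 498 at 16 h and 214.5 and 176 at 4 h.

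The other 2 were the dim probe sets of CXCR4, with -2.01 ± 0.33 (adjusted p 0.00304), and SRSF5, with 1.40 ± 0.26 (adjusted p 0.0254). Of the 8 fits that each left out 1 array at 4 or 16 h, 2 kept the call of SRSF5, whose adjusted p rose to 0.263 without the untreated replicate 1 at 16 h. For CXCR4 6 of the 8 kept it, with 0.0797 without the untreated replicate 1 at 4 h. With the replicate block, 15 probe sets changed (0.112%), among them CCNG2 (1.82), DUSP1 (1.57), NFKBIA (1.12), ASNS (1.09) and ELF3 (1.02), all below 0 at 4 h.

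HBEGF, EPHA2 and CHAC1 were called higher at 4 h. HBEGF, a ligand of the EGF receptor, had signals of 134 and 174 at 4 h with insulin, against 26.7 and 29.8 in untreated cells, a difference of 2.02 (adjusted p 0.02 at 4 h). Its second probe set had 83.8 and 72.9, against 69.8 and 58.6, a difference of 0.25 that was not called (adjusted p 1). EPHA2, an ephrin receptor, had 1728 and 1441, against 869 and 519 (adjusted p 0.0327). CHAC1, which degrades glutathione and is induced by ATF4, had 786 and 707, against 219.7 and 244.5 (adjusted p 0.0327). On the called probe sets of these 3 genes both insulin arrays lie above both untreated arrays.

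NFKBIA, the NF-kB inhibitor IkB-alpha, was lower at 4 h, with 1085.5 and 1485 with insulin, against 2503 and 2546 in untreated cells (adjusted p 0.0125), and differed by 0.13 at 16 h. The kinase FYN differed by -1.15 at 4 h (adjusted p 0.0327). TAF1A, a subunit of the RNA polymerase I factor SL1, differed by 1.40 (adjusted p 0.0197), and DNAJB1, an HSP70 co-chaperone, by 0.65 (adjusted p 0.0197). Of the 21 calls at 4 h, those of DEPP1 and HBP1 held without each of the 4 arrays at that time. At 8 h CLCN6, a chloride and proton exchanger, was called with 1.90 (adjusted p 0.0455), and all 8 h calls were lost without the untreated replicate 2, the array with the second highest ACTB ratio (0 called, 648 at an unadjusted p under 0.05).

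FOXO targets and insulin-repressed genes had 26 tested members, of which 1 was called lower over the 3 times (HBP1) and 1 higher (DDIT4), 7.69% against 0.271% of all genes. Of the 26, 19 were below 0 and 7 above. Over all 8105 genes 3749 were below 0 and 4356 above, the base for such counts in the other lists too. The list's median stood at -0.20 (4 h), -0.40 (8 h) and 0.01 (16 h), against 0.01, 0.01 and 0.02 over all genes. With the replicate block 6 were called lower and 1 higher (26.9%, against 1.26% of all genes). DEPP1 is not counted in this list.

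IRS2, the receptor substrate whose transcript FOXO raises, had signals of 149 and 155.5 at 4 h, 113 and 205 at 8 h and 238.5 and 263 at 16 h with insulin, against 349.6 and 302 at 4 h, 262 and 218.5 at 8 h and 276 and 357 at 16 h in untreated cells. It was lower with insulin in 6 of 6 pairs, with a mean difference of -0.65 ± 0.20, but did not pass the test (adjusted p 0.534). For uncalled genes, here and below, such a count of pairs is not evidence of a difference. Cyclin G2, CCNG2, a FOXO target that restrains the cycle, differed by -1.10 (4 h), -0.45 (8 h) and -0.04 (16 h) on its brightest probe set (adjusted p 0.782), and by -1.49 at 4 h on the dimmer one that was called (adjusted p 0.0123). The third probe set gave -1.12 at 4 h, so all 3 had lower signal with insulin at that time. ERBB3, the receptor partner of EGFR and a FOXO target, had 707 and 777 at 4 h, 819.6 and 572 at 8 h and 895 and 924 at 16 h with insulin, against 976.5 and 1163 at 4 h, 1121 and 1009 at 8 h and 1203 and 1369 at 16 h in untreated cells. It was lower with insulin in each pair, with a mean difference of -0.54 ± 0.11 (adjusted p 0.0196 in the mean of the 3 times and 0.111 over them). That call held in 6 of the 12 fits that left out 1 array, with 0.121 without the insulin replicate 2 at 8 h, and the gene's second, dimmer probe set showed -0.04 and was not called.

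BCL6, a transcriptional repressor, differed by -0.45 ± 0.12 (adjusted p 0.195), and TNFSF10, the death ligand TRAIL, by -0.33 ± 0.10 (adjusted p 0.248). TXNIP, which binds thioredoxin and limits glucose uptake, differed by -0.71 (4 h), -0.70 (8 h) and 0.38 (16 h) (adjusted p 0.312). BCL6, TNFSF10, TXNIP and the brightest CCNG2 probe set were called lower with the replicate block only. SESN1, a sestrin that restrains mTORC1, had a mean of -0.01 ± 0.19, and PIK3IP1, an inhibitor of PI3 kinase, one of 0.21 ± 0.15 (adjusted p 1 for both). The INSR, IGFBP1 and PCK1 probe sets did not pass the filter on low signal.

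Promoters are shown for the 4 genes called lower over the 3 times whose sequence holds the core letters that FOXO factors read, to show where those letters lie. Each runs from 250 bases before to 50 after the annotated start, 5′ to 3′ on the gene's strand, from RefSeq on GRCh38.p14. DEPP1 is at chr10:44978760-44979059 on the minus strand, HBP1 at chr7:107168753-107169052 on the plus strand, KLHDC2 at chr14:49767903-49768202 on the plus strand and NOX1 at chrX:100874310-100874609 on the minus strand. Capitals mark GTAAACA or its reverse TGTTTAC.
DEPP1: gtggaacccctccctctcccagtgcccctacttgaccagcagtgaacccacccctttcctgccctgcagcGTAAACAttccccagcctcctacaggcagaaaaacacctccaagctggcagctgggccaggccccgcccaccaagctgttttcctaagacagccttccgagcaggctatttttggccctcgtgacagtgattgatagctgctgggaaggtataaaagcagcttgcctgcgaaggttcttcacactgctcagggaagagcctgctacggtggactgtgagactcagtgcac
HBP1: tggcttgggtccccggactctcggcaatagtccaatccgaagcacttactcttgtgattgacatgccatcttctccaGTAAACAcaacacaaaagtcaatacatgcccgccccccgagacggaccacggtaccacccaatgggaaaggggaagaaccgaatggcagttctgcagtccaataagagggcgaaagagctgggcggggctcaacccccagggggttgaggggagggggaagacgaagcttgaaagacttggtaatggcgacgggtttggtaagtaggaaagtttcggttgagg
KLHDC2: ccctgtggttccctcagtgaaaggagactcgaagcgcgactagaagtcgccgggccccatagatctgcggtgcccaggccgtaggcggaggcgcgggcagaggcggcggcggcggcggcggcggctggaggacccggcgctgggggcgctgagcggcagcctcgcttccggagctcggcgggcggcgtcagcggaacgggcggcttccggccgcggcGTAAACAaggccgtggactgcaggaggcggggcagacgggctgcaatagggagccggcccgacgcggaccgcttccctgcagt
NOX1: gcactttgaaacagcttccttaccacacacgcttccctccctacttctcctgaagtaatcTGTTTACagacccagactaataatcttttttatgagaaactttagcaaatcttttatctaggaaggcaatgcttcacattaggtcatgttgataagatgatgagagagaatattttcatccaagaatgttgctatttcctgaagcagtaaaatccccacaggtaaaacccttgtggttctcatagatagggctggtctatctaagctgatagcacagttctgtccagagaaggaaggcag

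The letters start 180 bases upstream of the start in DEPP1, 173 in HBP1, 33 in KLHDC2 and 190 in NOX1. Of the 20 probe sets called lower over the 3 times, 15 had a promoter entry by symbol, and 4 of these (26.7%) hold GTAAACA on either strand. The share was 0 of 8 for those called higher (11 probe sets), 2.38% of 6711 tested genes with an entry and 3.41% of all 27305 promoters of this length. IFT20 and TMEM140, called lower in the mean of the 3 times, hold the letters too. The E-box CACGTG was in 1 of the 15 (CCNG2; 10.4% of tested genes), the AP-1 letters TGACTCA or TGAGTCA in 1 (HLA-DPB1; 3.28%) and TGACGTCA, the cyclic AMP element, in none (3.41%). None of the 3 was in a promoter of the 8 called higher. DEPP1 and HBP1 were already named as FOXO targets, and NOX1 was called only through a dimmer probe set. The genes were picked by their calls, and the difference between these shares was not tested. A match describes the letters in this window and is not a binding site or a cause, and no match says only that the letters are not there.

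The receptor and its signalling proteins had no called member among 28 tested (median -0.06), also with the replicate block. IRS1 differed by -0.22 ± 0.16, IGF1R by -0.33 ± 0.22 and the PI3 kinase subunit PIK3R1 by 0.39 ± 0.17 (adjusted p 0.896 for PIK3R1 and 1 for the others). PIK3R1 had 536 and 583 at 16 h with insulin, against 251.5 and 403 in untreated cells.

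**Figure D3:**
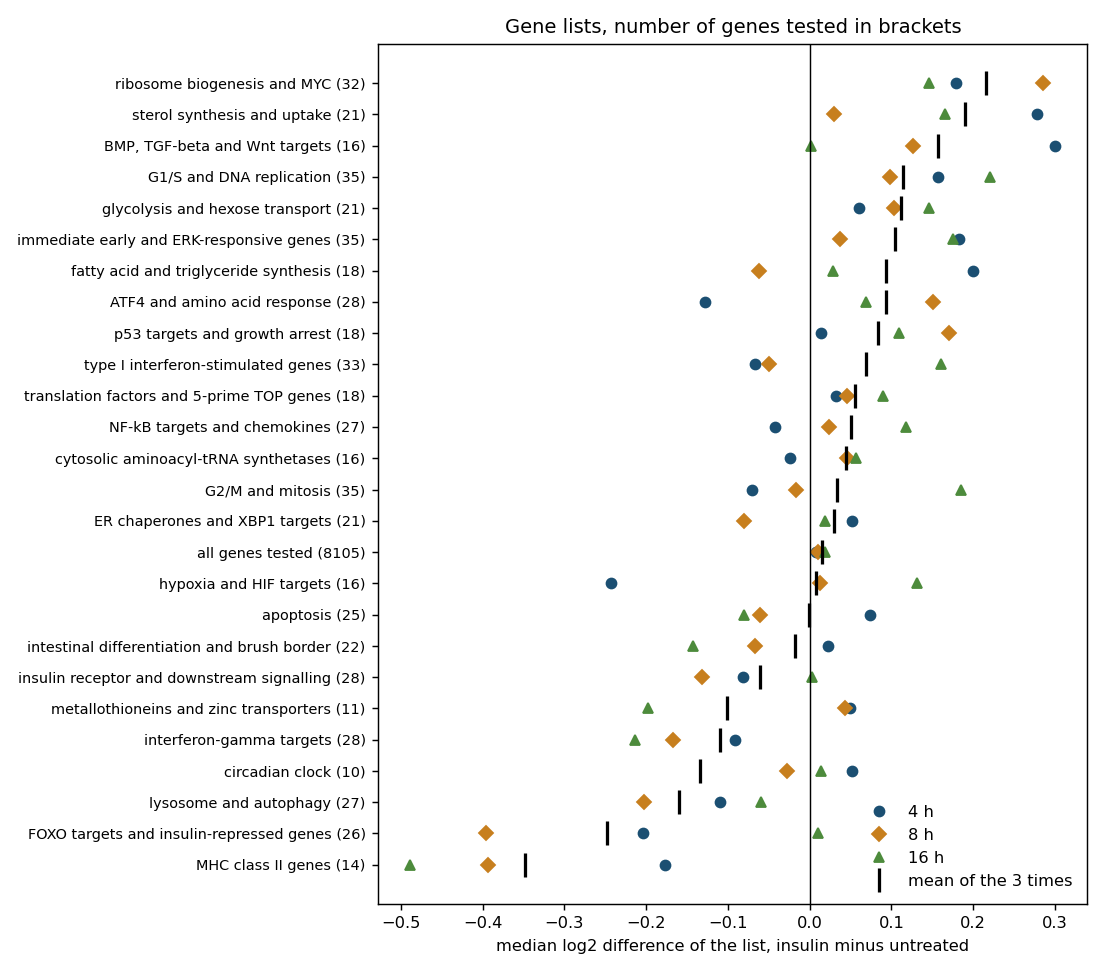
Median log2 difference, insulin minus untreated, of each gene list at 4 h (circles), 8 h (diamonds) and 16 h (triangles) and for the mean of the 3 times (bars), with the number of genes tested in brackets. MHC class II (-0.35) and FOXO targets (-0.25) had the lowest medians of the mean and ribosome biogenesis (0.22) and sterol synthesis (0.19) the highest, with all genes at 0.015. The MHC class II list was added with values of these data known.

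Immediate early and ERK-responsive genes had 35 tested members, of which 3 were called higher (FOSL1, PHLDA1 and IER3) and none lower, 8.57% against 0.271% of all genes. Of the 35, 24 were above 0 (4356 of all 8105 genes), with a median of 0.18 at 4 h, 0.04 at 8 h and 0.18 at 16 h. With the replicate block 8 were higher and 2 lower (28.6%, against 1.26% of all genes). EREG, an EGF receptor ligand, had 1166 and 1532.5 at 4 h with insulin, against 542 and 647 in untreated cells, and a mean of 0.59 ± 0.18 (adjusted p 0.371). EGR1 had 344 and 449 at 4 h, against 171 and 241, and FOS 218 and 177, against 137 and 102, and neither was called. EREG, EGR1 and FOS lay above untreated in both replicates at 4 h. At 8 h EGR1 had 513 and 648 with insulin, against 561.5 and 829, and FOS 315 and 111.5, against 459 and 223, so that both lay below untreated in both replicates. Their differences were 0.91 (4 h), -0.24 (8 h) and 0.18 (16 h) for EGR1 and 0.68 (4 h), -0.73 (8 h) and 0.36 (16 h) for FOS. DUSP1, a MAP kinase phosphatase, differed by -0.87 (4 h), 0.10 (8 h) and 0.69 (16 h) (adjusted p 0.195).

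ATF4 targets of the amino acid response ran in both directions. Of 28 tested, 2 were called higher (DDIT4 and SLC7A11) and 1 lower (ASNS), 10.7% against 0.271% of all genes, and the median was 0.09. PHGDH, the first enzyme of serine synthesis, was lower in 6 of 6 pairs, with -0.51 ± 0.12, without passing the test (adjusted p 0.124). TRIB3, a pseudokinase that binds AKT, differed by 0.20 ± 0.09 (adjusted p 0.882). Under the block 4 were higher and 2 lower (21.4%, against 1.26% of all genes).

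Ribosome biogenesis genes had 32 tested members, with 29 above 0 and 3 below, against 4356 above and 3749 below over all 8105 genes. The list had a median of 0.18 at 4 h, 0.29 at 8 h and 0.15 at 16 h, and no call over the 3 times. In the mean of the 3 times BYSL and NOP16 were called higher (6.25% against 0.432% of all genes). BYSL, needed for the small ribosomal subunit, had signals of 979.9 and 788 at 4 h, 861 and 927.5 at 8 h and 1198 and 1238 at 16 h with insulin, against 604 and 718 at 4 h, 635 and 529.5 at 8 h and 765 and 971 at 16 h in untreated cells. It was higher with insulin in each pair, by 0.51 ± 0.10 (adjusted p 0.0161 in the mean). NOP16, a nucleolar protein induced by MYC, differed by 0.46 ± 0.10 (adjusted p 0.0369 in the mean), and its insulin signal was the higher one in 4 of 6 pairs. Its other probe sets showed 0.23 and 0.05 and were not called. Of the 12 fits that each left out 1 array, 7 kept the call of BYSL, with an adjusted p of 0.1002 without the untreated replicate 1 at 16 h, and 5 that of NOP16, with 0.203 without the untreated replicate 2 at 4 h. Without the 8 h arrays that of NOP16 was 0.641. MYC itself had 2831 and 2143 at 4 h with insulin, against 1452 and 1474.5 in untreated cells, and 3837.5 and 3911 at 16 h, against 4640.4 and 3795 (adjusted p 0.478). With the replicate block 4 of the 32 were called, all higher (12.5%, against 1.26% of all genes).

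Lipid and sugar lists had no call over the 3 times. Over all 8105 genes 4356 were above 0. Sterol synthesis had 16 of 21 above 0 and a median of 0.19, and HMGCS1, the synthase before HMG-CoA reductase, had 1449.8 and 1309 at 4 h, 1313 and 1913 at 8 h and 369.7 and 394 at 16 h with insulin, against 683 and 848 at 4 h, 1177 and 1270 at 8 h and 214 and 272 at 16 h in untreated cells, higher in 6 of 6 pairs by 0.62 ± 0.18 (adjusted p 0.563, called with the replicate block). MSMO1, a later enzyme of the path, differed by 1.05 at 4 h (adjusted p 0.534 over the 3 times). Fatty acid synthesis had 11 of 18 above 0 (median 0.09), and FASN differed by 0.26 (4 h), 0.16 (8 h) and 0.86 (16 h) (adjusted p 0.896). SREBF1, the lipogenic factor that insulin raises in liver, had a mean of 0.14 ± 0.25 with replicates that differ by more than the groups (adjusted p 1). Glycolysis had 19 of 21 above 0 (median 0.11), with 0.33 ± 0.16 for hexokinase 2, HK2, and 0.04 ± 0.14 for the glucose transporter SLC2A1.

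Lysosome and autophagy genes had 20 of 27 below 0 (3749 of all 8105 genes), a median of -0.16 and no call over the 3 times. TPP1, a lysosomal peptidase, was lower in 6 of 6 pairs, with -0.34 ± 0.08 (adjusted p 0.252, called with the block). NBR1, WIPI2 and DEPP1, given above, were picked by their calls, which add nothing to the count of this list. The same holds for GABARAPL1 and ATG13, called lower in the mean of the 3 times through dimmer probe sets. The brightest set of GABARAPL1 had a mean of -0.12 (adjusted p 0.943 in the mean), with -0.78 at 8 h and 0.63 at 16 h. That of ATG13 had -0.27 (adjusted p 0.446), and its remaining set -0.63, not called. DEPTOR, an mTOR inhibitor, was lower in the mean of the 3 times, with -0.65 ± 0.13 (adjusted p 0.0116, and 0.0792 without the untreated replicate 2 at 4 h).

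**Figure D4:**
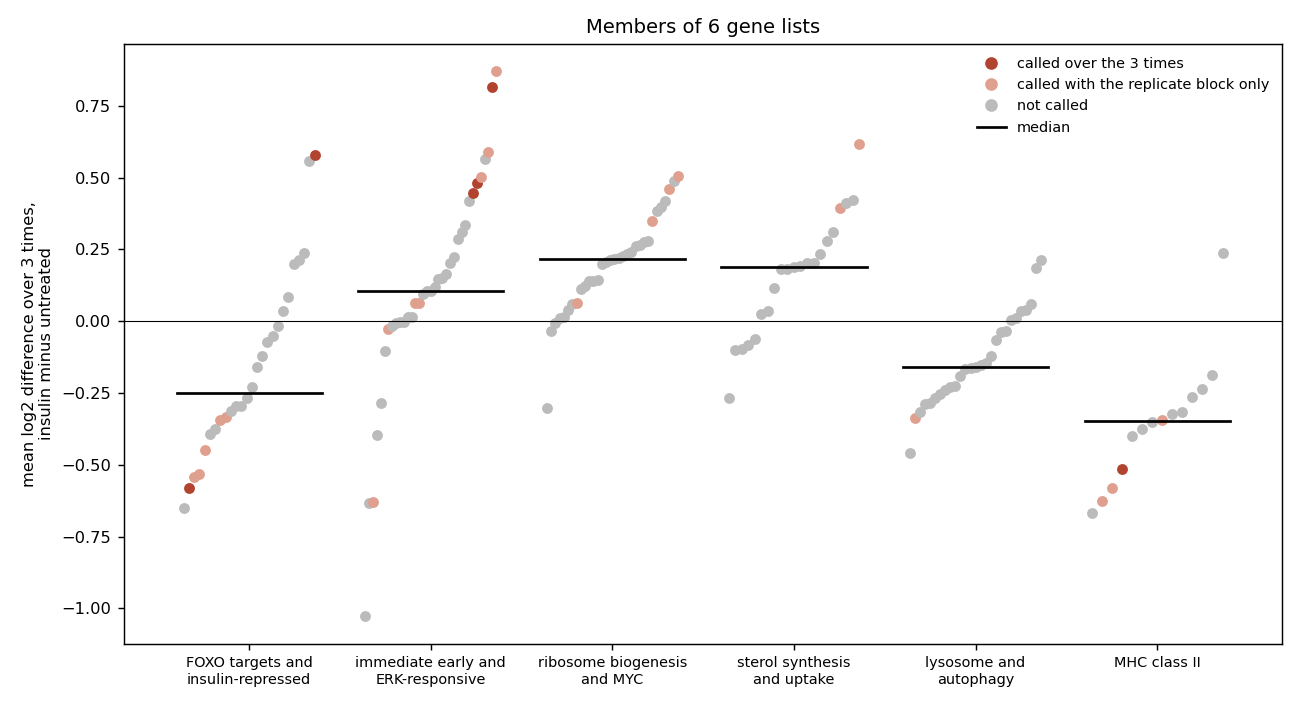
Mean log2 difference over the 3 times, insulin minus untreated, of each tested member of 6 lists, ordered within its list; dark red, called; light red, called with the replicate block only; line, median. HBP1 (-0.58) and DDIT4 (0.58) are the 2 called FOXO list members, at opposite ends, and 13 of the 14 MHC class II genes lie below 0. The MHC class II list was added with values of these data known.

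MHC class II genes, which present peptides to helper T cells and are raised in epithelial cells by interferon-gamma through the coactivator CIITA, were tested as a list that was added with values of these data known. Of 14 tested members, 13 were below 0, which describes these data and is not independent support. The list's median stood at -0.18 (4 h), -0.39 (8 h) and -0.49 (16 h). HLA-DPB1 was called over the 3 times (7.14%, against 0.271% of all genes) and CIITA in the mean of them, where 0.432% of all genes were called. The replicate block called 4 of the 14 lower (28.6%, against 1.26% of all genes in either direction).

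HLA-DPB1, the beta chain of HLA-DP, had signals of 391 and 366 at 4 h, 493 and 422 at 8 h and 972 and 1075 at 16 h with insulin, against 483 and 560.4 at 4 h, 736 and 723 at 8 h and 1239.6 and 1554 at 16 h in untreated cells. Both insulin arrays lay below both untreated arrays at each time. The mean difference was -0.52 ± 0.09 (adjusted p 0.0212, and 0.122 without the insulin replicate 2 at 8 h).

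CIITA had signals of 115 and 136 at 4 h, 137.5 and 145 at 8 h and 193 and 182 at 16 h with insulin, against 161 and 145 at 4 h, 204.5 and 270.5 at 8 h and 319 and 423 at 16 h in untreated cells. In untreated cells the level was higher at 16 h than at 4 h, and with insulin it was higher too, but less so. The difference was -0.27 (4 h), -0.69 (8 h) and -0.92 (16 h), with a mean of -0.63 ± 0.14 and an adjusted p of 0.0284 in the mean of the 3 times and 0.0745 over them. Without the untreated replicate 2 at 8 h the adjusted p in the mean rose to 0.113, and 4 of the 12 fits that each left out 1 array kept the call. The dimmer probe sets of CIITA did not show this difference. One had 305 and 179 at 16 h with insulin, against 128 and 76.6 in untreated cells, with differences of -0.50 (4 h), 0.44 (8 h) and 1.14 (16 h) and a mean of 0.36 ± 0.26, and the other had a mean of -0.05 ± 0.23. Neither was called (adjusted p in the mean 0.812 and 0.986).

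HLA-DRA differed by -0.34 ± 0.13, HLA-DPA1 by -0.38 ± 0.12 and the invariant chain CD74 by -0.26 ± 0.10, none called. HLA-DRB4 had 372 and 695 at 16 h with insulin, against 1433 and 1034 in untreated cells (mean -0.58 ± 0.18, adjusted p 0.252), and HLA-DRB1 -0.19 ± 0.16. The genes of this family share sequence, so probe sets of HLA-DRB and HLA-DQB1 can read more than 1 of them. The called probe set of HLA-DQB1 had 149 and 187 at 16 h with insulin, against 518 and 335, and the brightest 507 and 363, against 887 and 739 (adjusted p 0.00398 and 0.73). All 4 HLA-DQB1 probe sets were below 0 at each time.

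The list of interferon-gamma targets had 22 of 28 below 0 and a median of -0.11, with CIITA the 1 member called in the mean of the 3 times and none called over them. Of all genes, 0.432% were called in the mean. GBP2, a guanylate-binding protein, was lower in 6 of 6 pairs, with -0.39 ± 0.09 (adjusted p 0.124), as was the chemokine CXCL9, with -0.33 ± 0.08 (adjusted p 0.349). SERPING1, the C1 inhibitor, differed by -0.32 ± 0.08 (adjusted p 0.212). Among 33 genes stimulated by type I interferon, 22 were above 0 (median 0.07) and none was called. Over all 8105 genes 4356 were above 0 and 3749 below.

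Growth and stress lists had few calls. Over all 8105 genes 4356 were above 0. The G1/S list had 25 of 35 above 0 (median 0.11) and the G2/M list 25 of 35 (median 0.03), with no call over the 3 times in either list. CCND1, cyclin D1, had a mean of 0.00 ± 0.15. The p53 list had CDKN1A as its 1 call of 18 (5.56%), the NF-kB list IER3 of 27 (3.7%) and the BMP, TGF-beta and Wnt list ID1 of 16 (6.25%). Over all genes 0.271% were called. Aminoacyl-tRNA synthetases (16 tested), translation factors (18), ER chaperones (21), apoptosis (25), hypoxia (16), metallothioneins (11), brush border (22) and clock genes (10) had no call over the 3 times, and their medians lay between -0.13 and 0.05.

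The same dose of insulin was also given with 100 ng/ml TNF and set against 100 ng/ml TNF alone, on 12 other arrays. There 67 probe sets were called (0.499%), 55 higher and 12 lower. Of the 31 called with insulin alone, 25 had the same sign and 9 were called (29% of the 31, 13.4% of the 67), 8 of them with the same sign. Of the 20 lower ones, 15 had the same sign and 3 were called (15%), 2 with the same sign. Of the 11 higher ones, 10 had the same sign and 6 were called (54.5%), all with the same sign. The share with the same sign over all probe sets is not given here. HBP1 differed by -1.23 at 4 h with TNF (adjusted p 0.000284 over the 3 times), ID1 by 1.20 (adjusted p 3.11e-05) and DDIT4 by 2.10 (adjusted p 9.64e-07). FOSL1 differed by -0.26 at 4 h and 0.89 at 8 h with TNF (adjusted p 0.0309). ASNS was called with a mean of opposite sign, 0.26 with TNF and -0.37 without, made up of -0.38 at 4 h and 1.03 at 8 h with TNF. DEPP1 (-0.58, adjusted p 0.482) and ASS1 (-0.05, adjusted p 0.692) were not called with TNF. With TNF the list medians were -0.02 (FOXO targets), 0.06 (MHC class II), 0.02 (ribosome biogenesis) and -0.07 (sterol synthesis). Without TNF they were -0.25, -0.35, 0.22 and 0.19. Immediate early and ATF4 lists had 0.20 and 0.36 with TNF, against 0.10 and 0.09 without. Of 26 FOXO list members, 4 were called higher and 1 lower with TNF (0.617% of all genes were called). The difference between these medians was not tested.

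**Figure D5:**
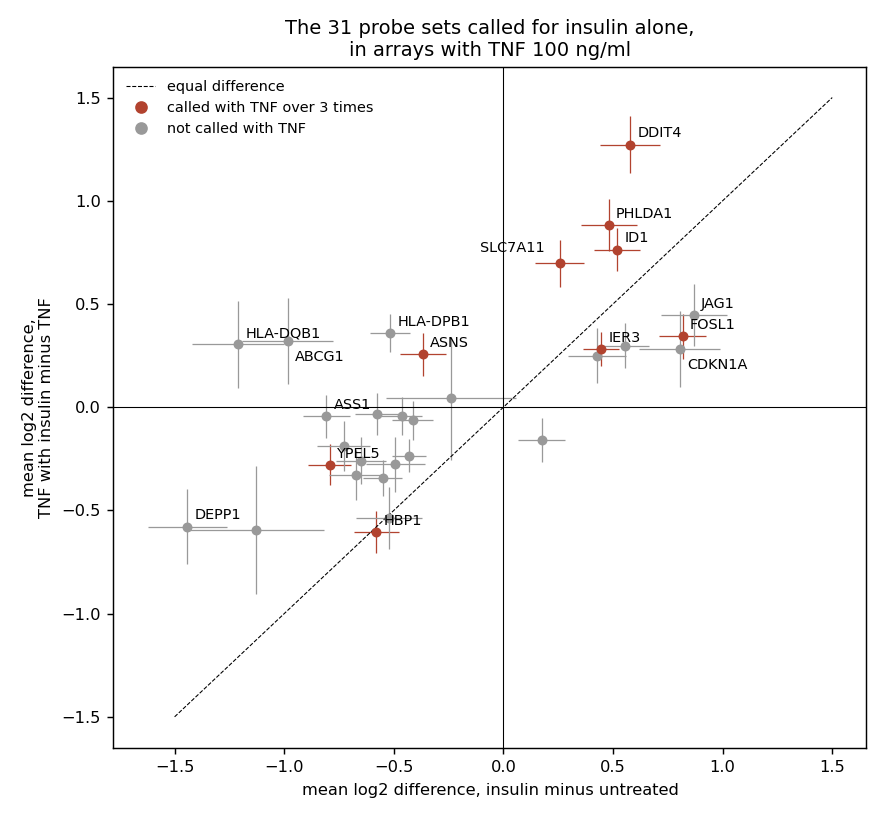
Mean log2 difference over the 3 times made by insulin in the presence of 100 ng/ml TNF (vertical) and by insulin alone (horizontal) for the 31 probe sets called with insulin alone; bars are standard errors, red points were called with TNF and the dashed line marks equal differences. Of the 31, 25 have the same sign on both axes, and HLA-DPB1 (0.36 with TNF, -0.52 alone) lies across 0.

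The insulin effect with TNF minus that without differed for 1 probe set (0.00745%; 91, or 0.678%, with the replicate block), that of HLA-DPB1. Its insulin difference was 0.36 ± 0.09 with TNF, not called (adjusted p 0.158), and -0.52 ± 0.09 without. The effects differed by 0.88 (adjusted p 0.0152). This call was lost, and no other probe set was called, with quantile scaling (733 at an unadjusted p under 0.05), with median centring (526) and on the compared arrays alone (466). It was also lost without the insulin replicate 1 at 16 h, either untreated replicate at 8 h, the replicate 1 of TNF with insulin at 8 or 16 h, or the TNF replicate 2 at 16 h. For DEPP1 the difference of effects was 0.86 (adjusted p 0.118, and 0.0274 with the block). At 5 ng/ml insulin with 5 ng/ml TNF, against 5 ng/ml TNF alone, limma called 0 probe sets (279, or 2.08%, at an unadjusted p under 0.05). Of the 31, 18 had the same sign. Dose and TNF level differ there at once.

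EGF at 100 ng/ml was given alone on 6 further arrays, and the untreated arrays are shared between the insulin and EGF differences below. Insulin and EGF, set against each other, differed for 83 probe sets (0.618%), 10 higher and 73 lower with insulin, and for 10 of the 31. The 31 were picked with the same insulin arrays that are set against EGF here, so these values are a description and not independent support. DEPP1 was lower under insulin than under EGF, with a log2 difference of -1.26 (adjusted p 4.49e-05), and HBP1, YPEL5, HSD17B2 and HLA-DPB1 were lower too, with -0.59, -0.63, -0.66 and -0.47 (adjusted p 0.000172, 0.00295, 0.0101 and 0.0353). Against untreated cells these 5 had means of -1.44, -0.58, -0.79, -0.73 and -0.52 under insulin and -0.19, 0.01, -0.16, -0.07 and -0.04 under EGF. CIITA was lower under insulin than under EGF as well, with -0.73 (adjusted p 0.00926).

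ID1 was lower under insulin than under EGF, with -0.45 (adjusted p 0.00313), with 1.11 under insulin and 2.07 under EGF at 4 h against untreated cells. FOSL1 had a mean of 0.82 under insulin and 0.98 under EGF, a difference of -0.17 ± 0.11 that did not pass the test (adjusted p 0.798). CDKN1A at 4 h had 1.68 under insulin and 2.58 under EGF, and over the 3 times the difference of -0.34 did not pass either (adjusted p 0.661).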

How the data were processed

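RNA of HT-29 cells was measured on 54 arrays, 27 groups of 2. The deposited signal intensities came from MAS5, per the submitters' processing notes, and each array's trimmed mean (2% off each end) is near 500. No other processing step is given in the sources used here. The table has 22283 probe sets, of which 68 are controls. Genes were named from GEO's platform annotation: 19065 probe sets have 1 symbol, 1043 several and 2107 none.

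Signals were tested as log2(signal + 12.5), the constant being the 10th percentile of all signals, without further scaling. Probe sets were kept when a group's mean reached the median of all values (138.9), 13422 in all. One limma model (limma 3.58.1, R 4.3.3) with a mean per group was fitted over 54 arrays (eBayes with trend), with contrasts for each time, their mean, their moderated F test and the change, and Benjamini-Hochberg adjustment at 0.05. Scripts were tested on simulated data. The labels call the replicates biological duplicates. Pairing by replicate number was assumed. The deviations from group means, given with the counts, do not settle it, and the block for it is an alternative. The named genes are the largest rises and falls among calls, up to 4 members of each list and fixed genes. Members, lists, tests and rules were chosen with earlier results of these data known. Alternatives were the constant, the filter, quantile and median scaling, blocks, the ACTB ratio as covariate, the trend, the arrays fitted and leaving out each array, and those added after seeing the data are named as such.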

Additional observations from a re-analysis of the deposited data

Results flagged for a closer look

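The insulin effect at 16 h differed from that at 4 h, by a test of that change, for HBP1 (1.72, adjusted p 0.000855), DEPP1 (2.80, adjusted p 0.00224), CXCR4 on its dimmer probe set (-2.01, adjusted p 0.00304) and SRSF5 on its dimmer probe set (1.40, adjusted p 0.0254). The F test of the change over 4, 8 and 16 h called the same 4, with adjusted p-values of 0.000984, 0.0103, 0.0153 and 0.0445 in that order. The insulin effect on HLA-DPB1 differed between cells with and without 100 ng/ml TNF by 0.88 (adjusted p 0.0152).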

How the results depend on the processing

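The counts are in the order over the 3 times, mean, 4 h, 8 h, 16 h, change and F test of the change. The reported ones are 31, 44, 21, 6, 3, 4 and 4, and then 67 with TNF, 1 for the difference of effects with and without TNF, and 83 against EGF. Fitted on the compared treatments alone they were 0, 0, 1, 0, 1, 0 and 0, with 2, 0 and 4 (unadjusted p under 0.05: 456, 805, 493, 456, 493, 392 and 275, with 613, 466 and 901). Median centring gave 7, 5, 6, 0, 0, 1 and 0, with 19 and 0 for the first 2 TNF results. The replicate block within each time gave 160, 229, 79, 42, 14, 15 and 26, with 378, 91 and 320. A block over all times gave 74, 101, 37, 13, 7, 7 and 9, with 126, 8 and 170. A block for the 8 h arrays alone, added after seeing the data, gave 87, 118, 39, 19, 6, 7 and 9, with 164, 19 and 180. The ACTB ratio as a covariate gave 86, 95, 40, 16, 5, 8 and 9, and 146 against EGF. A constant of 1 gave 5 at 16 h and 3 for the difference of effects, and one of 50 gave 0 at 8 h. Without a filter the mean had 27 and 8 h had 3, and with a filter at the 60th percentile the difference of effects had 2. Quantile scaling gave 68 in the mean (24 higher, 44 lower) and 0 for the difference of effects. Without the intensity trend 16 h had 1. Without the 8 h arrays the mean had 23, and without both 8 h replicate 2 arrays, also added, 11.

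With 1 array left out, the counts ran from 11 to 54 over the 3 times, 20 to 76 in the mean, 7 to 22 at 4 h, 0 to 31 at 8 h, 0 to 10 at 16 h, 2 to 8 for the change and 0 to 11 for its F test. They ran from 29 to 112 with TNF, 0 to 10 for the difference of effects, 0 to 3 at the low doses and 50 to 128 against EGF. The lowest over the 3 times, 11, came without the insulin replicate 2 at 4 h, which also gave 7 at 4 h and 0 for the F test of the change. The lowest in the mean and at 16 h came without the untreated replicate 1 at 16 h. Of DUSP6 on its dimmer probe set, the mean reversed to 0.69 without the 8 h arrays, 0.28 without both 8 h replicate 2 arrays and 0.29 without the insulin one of them, and with 1 array left out it ran from -0.77 to 0.29. That of SLC7A11 reversed to -0.090 without the 8 h arrays. The causes were not tested.

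Of the list medians of the mean difference, that of apoptosis genes, which is near 0, changed direction under quantile scaling, and under median scaling none did. Of the medians given per time, those at 16 h turned to -0.064 for FOXO targets and -0.053 for all genes under median scaling. Of single-gene values, 1097 kept direction and call under the other alternatives and 355 lost the call, and with 1 array left out 629 kept both and 422 lost the call. Calls of single genes over the 3 times, DEPP1, HBP1, YPEL5, ASS1 and FOSL1 and the dimmer probe sets of CXCR4 and HLA-DQB1 apart, depend on at least 1 array. Signals near the added constant limit the size of falls such as that of DEPP1.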
